A study of Mus musculus with 12 samples.

Results

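Among the transcripts measured in these mouse embryonic stem (ES) cells is a module of 33 germline genes, listed as genes that promoter methylation keeps silent. The genes act in the piRNA pathway, in meiosis or in germ cells. The list is of named genes and its rule uses no measured value, but it was drawn up with earlier results of these data known. All 33 were found among the 26742 genes of the count table. Of these, 32 had enough counts to be tested, against 16627 tested genes in all. The exception was Asz1, a germ granule protein of the piRNA pathway, which had at most 14 counts in any library. No DNA methylation was measured in these libraries, so "methylation-silenced" is background on the genes and was not checked here.

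The cells were of the 129 or the B6J background, all labelled male, and grew in serum with leukaemia inhibitory factor (LIF). They were given either DMSO, the solvent, or 1 µM of the MEK inhibitor PD 0325901 daily from day 0 to day 5. Each background and medium made 1 group, 4 in all, with 3 libraries each and 12 in total. The labels give 1 genotype per background, name no clone and do not say whether feeder cells were present, so backgrounds and cell lines cannot be told apart. Nor do they state separate cultures for the libraries of a group, so each p-value reflects the spread between libraries alone, and that spread may be technical.

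MEK activates ERK, and inhibitors of MEK are part of the media that hold mouse ES cells in the naive state, in which the genome is known to lose much of its DNA methylation. Germline genes with CpG-dense promoters are among the best known targets of promoter methylation in the early embryo, and many rise in cells that lack DNA methyltransferases. A further layer of repression in ES cells is a variant Polycomb complex, PRC1.6, in which E2F6 and the MGA and MAX pair bind DNA. piRNAs are small RNAs that guide PIWI proteins to transposon transcripts in germ cells, and the synaptonemal complex is the protein ladder that joins homologous chromosomes in meiosis.

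The promoters of the genes that moved in both backgrounds are shown first, because the module is defined by repression at promoters. They were read from the RefSeq table for GRCm38.p6, in which 30 of the 33 genes had an entry of 300 bases, and bases inside an annotated exon of the gene were left out. Each is given 5′ to 3′ in the gene's direction in lower case, with every CpG in capitals. The first 5 belong to genes that were higher with the inhibitor in both backgrounds: Fkbp6 at chr5:135350045-135350244, minus strand, Tuba3a at chr6:125286082-125286281, minus strand, Hormad2 at chr11:4441106-4441305, minus strand, D1Pas1 at chr1:186967216-186967415, plus strand, Tex19.1 at chr11:121145943-121146142, plus strand. The last 3 belong to the genes that were lower in both: Tdrkh at chr3:94413044-94413243, plus strand, Tdrd1 at chr19:56826009-56826208, plus strand, Ddx4 at chr13:112652476-112652560, minus strand. The Ddx4 stretch holds only the 85 bases outside its annotated exons, and each of the others holds 200 bases.
Fkbp6: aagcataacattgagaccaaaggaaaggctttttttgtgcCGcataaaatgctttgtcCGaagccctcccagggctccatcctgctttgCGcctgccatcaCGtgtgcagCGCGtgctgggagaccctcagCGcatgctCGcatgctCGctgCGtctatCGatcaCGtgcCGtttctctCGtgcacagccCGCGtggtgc
Tuba3a: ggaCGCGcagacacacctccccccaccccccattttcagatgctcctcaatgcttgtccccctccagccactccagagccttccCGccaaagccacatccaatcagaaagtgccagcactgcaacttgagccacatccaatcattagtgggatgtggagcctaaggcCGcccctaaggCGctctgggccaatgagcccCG
Hormad2: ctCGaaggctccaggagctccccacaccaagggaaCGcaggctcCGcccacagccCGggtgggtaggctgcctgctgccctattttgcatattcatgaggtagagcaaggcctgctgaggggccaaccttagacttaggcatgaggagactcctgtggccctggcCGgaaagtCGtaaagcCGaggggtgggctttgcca
D1Pas1: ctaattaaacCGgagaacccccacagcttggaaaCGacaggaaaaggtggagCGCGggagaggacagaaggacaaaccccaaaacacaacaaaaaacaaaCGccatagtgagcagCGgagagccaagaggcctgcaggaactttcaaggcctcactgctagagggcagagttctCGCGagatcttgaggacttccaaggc
Tex19.1: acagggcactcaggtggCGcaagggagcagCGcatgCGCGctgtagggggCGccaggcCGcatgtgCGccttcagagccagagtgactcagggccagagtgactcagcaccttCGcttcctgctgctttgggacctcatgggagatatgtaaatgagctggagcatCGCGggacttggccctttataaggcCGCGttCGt
Tdrkh: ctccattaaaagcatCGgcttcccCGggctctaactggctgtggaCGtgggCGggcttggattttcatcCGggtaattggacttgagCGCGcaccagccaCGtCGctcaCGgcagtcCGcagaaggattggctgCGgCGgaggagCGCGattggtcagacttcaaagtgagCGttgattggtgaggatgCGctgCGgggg
Tdrd1: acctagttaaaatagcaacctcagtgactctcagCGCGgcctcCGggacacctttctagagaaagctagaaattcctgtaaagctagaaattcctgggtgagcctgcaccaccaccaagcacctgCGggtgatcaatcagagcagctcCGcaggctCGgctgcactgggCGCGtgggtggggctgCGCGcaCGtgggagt
Ddx4: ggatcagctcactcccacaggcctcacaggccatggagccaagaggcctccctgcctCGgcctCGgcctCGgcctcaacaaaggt

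Across the 30 promoters the median was 20 CpG in 300 bases, with a range from 10 to 38, against a median of 7 over all 32851 promoters of the table. Counts here cover the full 300 bases of each entry, including bases not shown above. The E2F6 motif, searched as TCCCGC on both strands, was present in 15 of the 30, or 50% of them. It was present in 19.98% of all promoters and in 40.27% of the 14281 promoters with at least 10 CpG. The E-box CACGTG, which reads the same on both strands and is the site that MGA and MAX can bind, was present in 14 of the 30 (46.67%), against 7.15% of all promoters and 10.87% of those with at least 10 CpG. The 8 promoters of genes higher in both backgrounds held 12 to 21 CpG each. Of these 8, 1 held the E-box, that of Fkbp6, and 5 held the E2F6 motif. The 3 promoters of genes lower in both held 20 to 38 CpG, 2 of them the E-box and 1 the E2F6 motif. For Ddx4 the 300 bases held 38 CpG, 1 E-box and 1 E2F6 motif. The 85 bases shown for it hold 3 CpG and neither motif. Among the 13 genes with a promoter entry that were called in neither background, 9 had the E-box and 8 the E2F6 motif. A motif match is a description of letters and not evidence of a bound site.

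Library totals ran from 62634533 to 96341637 counts, of which the 33 genes took 19186 to 48801 per library. There were 30 genes with a count in every library and 19 with at least 100 in every library. In each group the library least like the other pair was taken as the library that stands apart, so every group has 1 by definition. It was replicate 3 in B6J with the inhibitor, and replicate 1 in each of the other 3 groups. In 129 with DMSO the chi-square per degree of freedom was 7.5 between replicates 2 and 3, and 175 and 166 for their pairs with replicate 1. In B6J with the inhibitor it was 26.3 for replicates 1 and 2, 42.1 for 2 and 3 and 120 for 1 and 3. Replicate 2 thus lay between the others there. The ES cell markers were high in every library (summed level of 10 genes from 3607 to 5630 CPM, where CPM is the count scaled to a common library size, with TMM factors). All 20 fibroblast markers were also detected in every group, and the 11 primitive endoderm markers summed to 2791 CPM in replicate 1 of 129 with DMSO against 76.2 to 229.8 CPM in the other 11 libraries. That library gave the lowest level of its group for 32 of the 32 tested germline genes, as it did for 49% of all tested genes. Replicate 1 of 129 with the inhibitor was the lowest for 27 of 32 (41.5% of all genes), and replicate 3 of B6J with the inhibitor for 23 of 32 (38.6%). The part of these libraries in the results was not tested beyond the values without them that follow. The libraries that stand apart were chosen from these same counts, so leaving them out narrows the spread within groups. Adjusted p-values of that setting are thus likely too small, and they are given as a description and not as a test.

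The germline genes were not silent in DMSO, but most were below the middle of the transcriptome. At or above the median of all tested genes per kilobase of exon were 10 of the 32 in 129 and 7 in B6J with DMSO. Per kilobase of exon, the median of the 32 was 2.11 CPM/kb in 129 with DMSO against 3.456 over all tested genes of known length, and 1.303 against 3.324 in B6J with DMSO. With the inhibitor the medians were 1.984 in 129 and 1.517 CPM/kb in B6J. Tex19.1, a germline and placental gene that restrains retrotransposons, stood highest in 129 with DMSO at 30.7 ± 5.47 CPM/kb (SD, n = 3). Next came the recombination factor Hsf2bp at 14.3 ± 1.54 and the testis α-tubulin Tuba3a at 12.4 ± 4.26 CPM/kb, whose values overlapped. In 129 with the inhibitor the order changed, with Tuba3a at 53.1 ± 14.9 and Tex19.1 at 51.6 ± 13.8 CPM/kb, which again overlapped. In B6J, Tex19.1 led both groups at 24.2 ± 3.3 and 41.3 ± 1.37 CPM/kb, followed in DMSO by Ddx4 at 12.8 ± 1.18 and with the inhibitor by Hsf2bp at 17.9 ± 0.25 CPM/kb. At the other end Spo11, Sycp2 and Asz1 were below 0.05 CPM/kb in all groups. Asz1 had 0, 3 and 0 counts in the 129 libraries with DMSO, where the limit that a count of 0 allows is 3 counts, and no fold is given for it.

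**Figure D1:**
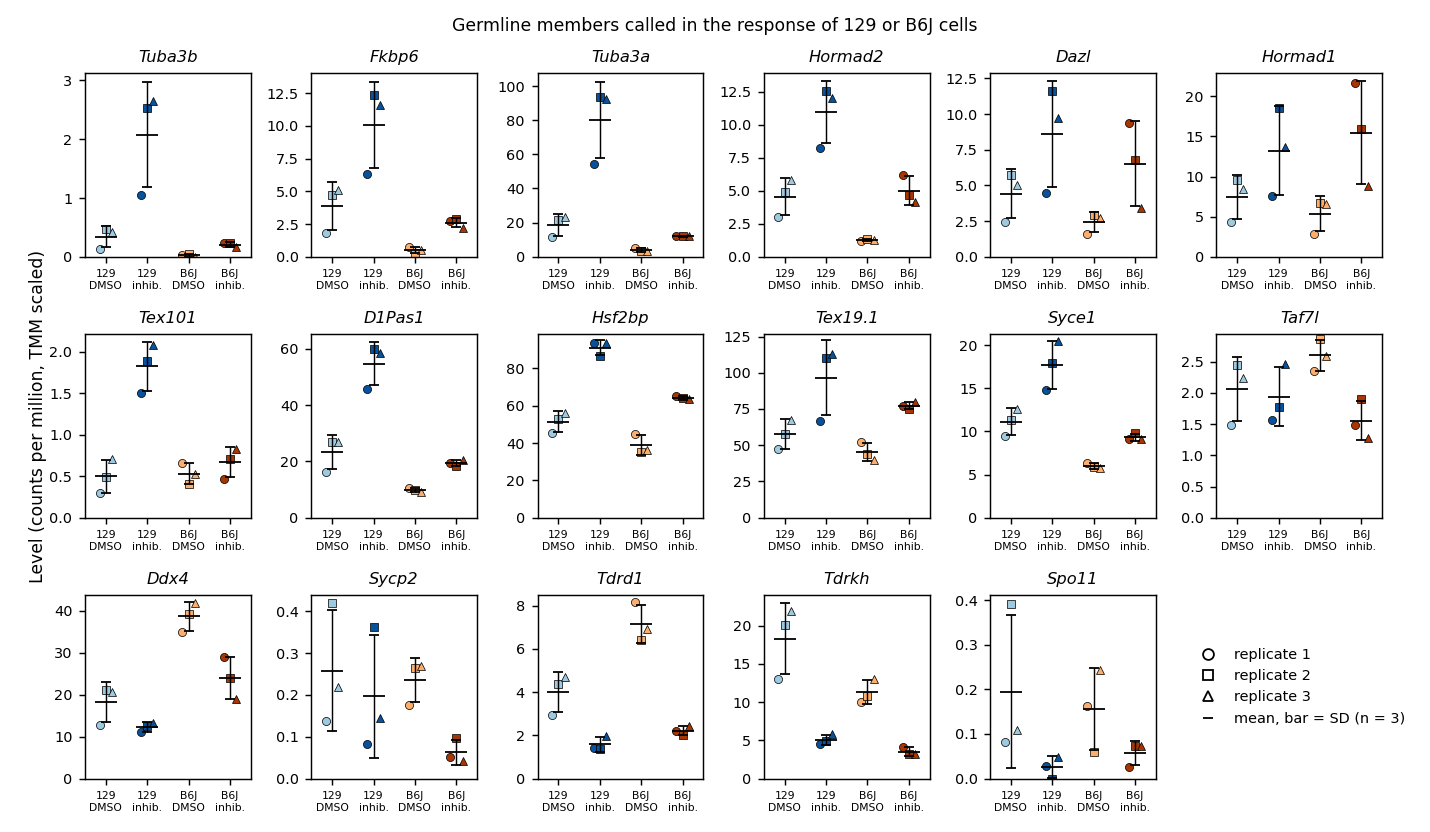
Level in CPM (linear axes from 0) in each of the 12 libraries for the 17 germline genes called in the response of at least 1 background; symbols mark replicates, the horizontal line is the mean and the bar the SD (n = 3). Tuba3a with the inhibitor reached 54.2 to 93.5 CPM in 129 but 11.9 to 12.3 CPM in B6J, and Tdrd1 and Tdrkh were lower with the inhibitor in every library of both backgrounds.

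The first question is what MEK inhibition did to these genes in each background. In 129, 9 of the 32 tested genes rose and 4 fell, and in B6J 10 rose and 5 fell. Over all tested genes 17.4% were called higher and 18.2% lower in 129, and 14.6% and 16.5% in B6J. These shares also stand beside the response counts of smaller groups and other lists below. The share of germline genes called lower (4 and 5 of 32) was thus near that background, and the share called higher (9 and 10 of 32) was above it, which for a chosen list is a description and not a test. Without the library that stands apart in each group, 12 rose and 5 fell in 129 and 13 rose and 8 fell in B6J, in a setting that called more of all tested genes too (25.6% higher and 25.6% lower in 129, 22.3% and 22.9% in B6J). The count of falls was 2 without replicate 2 with DMSO or replicate 1 with the inhibitor in 129, and 2 or 3 without any library of B6J but replicate 1 with the inhibitor. Those fits also called fewer of all tested genes lower, 14.3% and 14.9% in 129 and 11.2% to 14% in B6J. The median log2 fold change of the 32 was 0.19 in 129 and 0.33 in B6J, against -0.01 and 0.00 over all tested genes. Calls rest on edgeR's quasi-likelihood test with Benjamini-Hochberg adjustment over all tested genes and a threshold of 0.05, and every adjusted p below is from it unless another tool is named. Libraries of the 2 groups did not overlap for 8 genes that were higher and 3 lower in 129 (23.0% and 24.4% of all tested genes), and for 12 higher and 6 lower in B6J (24.3% and 25.7%). In bulk RNA, fewer cells that express a gene and less RNA per cell cannot be told apart.

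The same 8 genes rose in both backgrounds: Fkbp6, D1Pas1, Tex19.1, Syce1, Hormad2, Hsf2bp, Tuba3a and Tuba3b. Ddx4, Tdrd1 and Tdrkh fell in both. Of all tested genes 10.4% were called higher in both, 11.5% lower in both and 0.271% in opposite directions. Tex101 was called higher and Spo11 lower in 129 alone, Dazl and Hormad1 higher and Sycp2 and Taf7l lower in B6J alone, and 15 genes were called in neither. The 129 and B6J responses share no library.

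**Figure D2:**
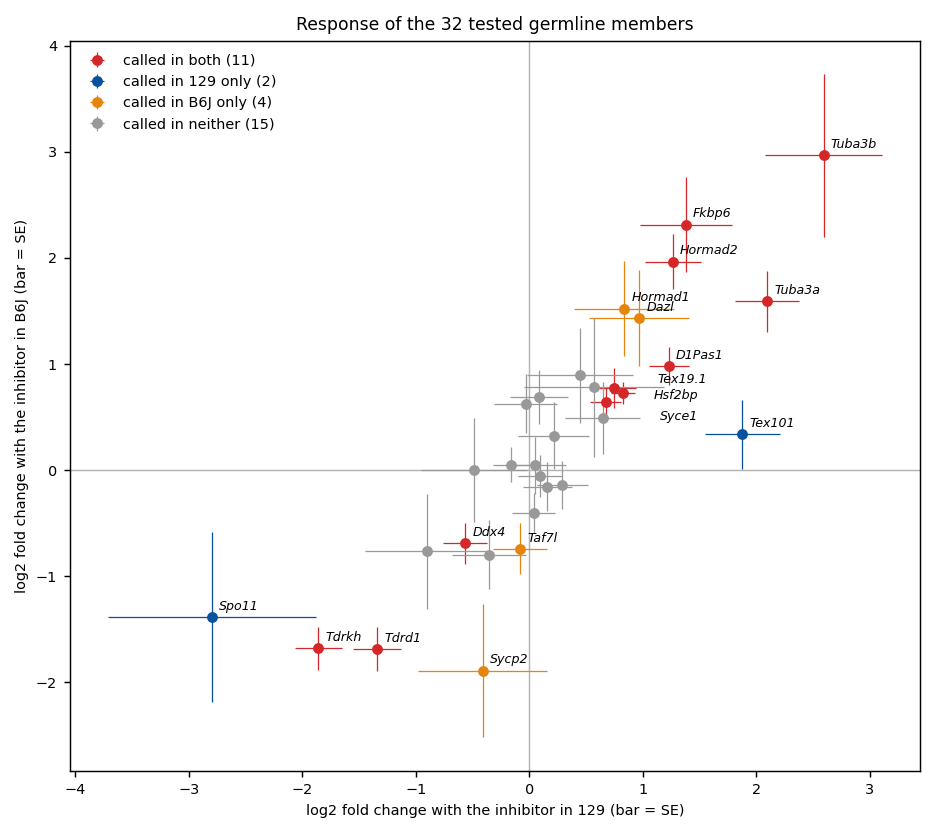
Log2 fold change with the inhibitor in 129 (horizontal) against that in B6J (vertical) for the 32 tested germline genes, with the standard error of the fit as bars; colours give the background in which the gene was called. The 11 genes called in both lie at the upper right (8) and the lower left (3).

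Among the piRNA and germ granule genes, members rose and fell side by side: 3 of 12 rose and 3 fell in 129, and 4 rose and 3 fell in B6J. Fkbp6, a co-chaperone needed for piRNA loading, was at 1.81, 4.69 and 5.13 CPM in 129 with DMSO and at 6.31, 12.3 and 11.6 CPM with the inhibitor. In B6J it was at 0.755, 0.265 and 0.54 CPM with DMSO and at 2.7, 2.86 and 2.21 CPM with the inhibitor. Every library with the inhibitor was above every library with DMSO in both backgrounds. Its log2 fold change was 1.38 (SE 0.41, adjusted p = 0.0208) in 129 and 2.31 (SE 0.45, adjusted p = 0.00233) in B6J. The 129 call did not hold when treated replicate 2 or 3 was left out (adjusted p = 0.0673 and 0.0645).

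D1Pas1, a testis DEAD-box helicase gene on chromosome 1, was at 16.3, 26.9 and 27 CPM in 129 with DMSO and at 45.8, 59.8 and 58.6 CPM with the inhibitor. The B6J values were 10.5, 9.78 and 9.2 CPM and 19.3, 18.4 and 20.6 CPM. Treated and control libraries did not overlap, and the log2 fold changes were 1.23 (SE 0.17, adjusted p = 0.000281) and 0.98 (SE 0.18, adjusted p = 0.00139). Tex19.1 was at 47.1, 58 and 67.6 CPM in 129 with DMSO and at 66.8, 110 and 113 CPM with the inhibitor, where replicate 1 lay within the DMSO range. In B6J it rose from 52.1, 43.7 and 40.1 CPM to 77.3, 74.8 and 79.9 CPM without overlap. Its changes were 0.75 (SE 0.19, adjusted p = 0.00973) in 129 and 0.77 (SE 0.19, adjusted p = 0.00907) in B6J. A share of 2.948% of its 50-base windows also occurs in the paralogue Tex19.2.

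The fallers of this group were 2 Tudor proteins and a helicase of germ granules. Tdrkh, a mitochondrial Tudor protein of piRNA maturation, was at 13, 20.1 and 21.9 CPM in 129 with DMSO and at 4.46, 4.86 and 5.83 CPM with the inhibitor. The B6J values were 10.1, 10.8 and 13 CPM with DMSO and 4.18, 3.26 and 3.15 CPM with the inhibitor. The groups were far apart in both backgrounds, with log2 fold changes of -1.86 (SE 0.20, adjusted p = 4.72e-05) and -1.68 (SE 0.20, adjusted p = 9.95e-05). A limit is that 36.71% of its exon bases overlap Oaz3 on the opposite strand, and the strand setting of the counting is not given in the sources used here.

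Tdrd1, a Tudor scaffold that binds PIWI proteins, was at 2.95, 4.35 and 4.71 CPM in 129 with DMSO and at 1.41, 1.36 and 1.96 CPM with the inhibitor. In B6J its level fell from 8.14, 6.4 and 6.91 CPM to 2.21, 1.99 and 2.45 CPM. All treated libraries were below all controls, and the changes were -1.34 (SE 0.21, adjusted p = 0.000556) and -1.69 (SE 0.21, adjusted p = 0.000111). Ddx4, the VASA helicase that marks the germ line, was at 12.7, 21.2 and 20.6 CPM in 129 with DMSO and at 11, 12.6 and 13.3 CPM with the inhibitor, so that replicate 1 with DMSO lay within the treated range. In B6J it was at 34.9, 39.2 and 42 CPM and then at 28.9, 24.1 and 18.9 CPM, with no overlap. The changes of -0.57 (SE 0.20, adjusted p = 0.0424) in 129 and -0.69 (SE 0.19, adjusted p = 0.0188) in B6J were the least firm of those called in both backgrounds. Under the 22 alternative settings the 129 call held in 11 and the B6J call in 17. The 129 call was lost in the fits without replicate 2 or 3 of 129 with DMSO or any 1 library of 129 with the inhibitor (adjusted p from 0.0686 to 0.149). Leaving out B6J control 2 or 3 or treated B6J replicate 2 ended it too (0.0551 to 0.0633), and with a fibroblast covariate it turned to 0.11 (adjusted p = 0.64). The B6J call was lost without replicate 2 or 3 of either B6J group (adjusted p from 0.0508 to 0.0813) and with the covariate (-0.18, adjusted p = 0.333).

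Dazl, an RNA-binding protein of germ cell commitment, was called in B6J alone. Its levels there were 1.61, 2.9 and 2.73 CPM with DMSO and 9.36, 6.8 and 3.43 CPM with the inhibitor, without overlap but with a wide spread among treated libraries. The change was 1.43 (SE 0.45, adjusted p = 0.0313), and the adjusted p was 0.106 and 0.118 without replicate 1 of B6J with DMSO or with the inhibitor and 0.0563 to 0.0795 without replicate 2 of either group or replicate 3 with DMSO. In 129 it was at 2.46, 5.71 and 5.06 CPM and 4.47, 11.6 and 9.73 CPM, which overlapped (0.97, SE 0.44, adjusted p = 0.111). Without the library that stands apart in each group, the 129 change was 0.99 (adjusted p = 0.000277, in a fit whose spread was narrowed by that choice). Piwil2, the PIWI protein MILI, had a fitted change of 0.04 in 129 and -0.41 (adjusted p = 0.128) in B6J. The other piRNA genes Mael, Mov10l1, Tdrd9 and Stk31 had changes from 0.05 to 0.65 in 129 and from -0.14 to 0.49 in B6J, none of which passed the test.

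Of the 8 genes of the chromosome axis and synaptonemal complex, 2 rose and 0 fell in 129, and 3 rose and 1 fell in B6J. For the 0, no axis gene had a negative change at an unadjusted p under 0.05 in 129, and DESeq2 and limma-voom called none lower, but without treated replicate 2 Sycp1 was called lower (-1.23, adjusted p = 0.0469). Hormad2, which monitors unsynapsed chromosome axes, was at 3.01, 4.9 and 5.79 CPM in 129 with DMSO and at 8.27, 12.6 and 12 CPM with the inhibitor. In B6J it was at 1.18, 1.37 and 1.3 CPM and then at 6.21, 4.72 and 4.12 CPM. Treated libraries exceeded all controls in both, and the changes were 1.26 (SE 0.25, adjusted p = 0.00232) and 1.96 (SE 0.26, adjusted p = 0.00017). Syce1, a central element protein of the synaptonemal complex, was at 9.5, 11.3 and 12.6 CPM in 129 with DMSO and at 14.8, 17.9 and 20.4 CPM with the inhibitor. Its B6J levels were 6.39, 5.85 and 5.72 CPM and 9.11, 9.76 and 9.09 CPM. Treated and control libraries did not overlap, and the changes were 0.67 (SE 0.14, adjusted p = 0.00285) and 0.64 (SE 0.14, adjusted p = 0.00439).

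Hormad1, the partner of Hormad2 on the axis, was at 2.87, 6.73 and 6.56 CPM in B6J with DMSO and at 21.7, 15.9 and 8.83 CPM with the inhibitor, which did not overlap. The B6J change was 1.52 (SE 0.45, adjusted p = 0.0232). Leaving out replicate 1 of the B6J controls ended the call (adjusted p = 0.0769), as did leaving out replicate 1 or 2 of the treated B6J libraries (adjusted p = 0.0885 and 0.0619). In 129 its levels of 4.31, 9.54 and 8.46 CPM and 7.52, 18.5 and 13.7 CPM overlapped (0.83, SE 0.44, adjusted p = 0.164). Without the library that stands apart in each group that value was 0.84 (adjusted p = 0.00109, with the spread again narrowed by that choice). A share of 27.22% of its 50-base windows occurs in another annotated gene, Gm15529. Sycp2, a lateral element protein, was called lower in B6J on very few reads, with 14, 22 and 20 counts with DMSO and 4, 8 and 4 counts with the inhibitor (-1.89, SE 0.63, adjusted p = 0.0403). This call held under 11 of 21 alternatives and was lost without any 1 of the B6J libraries (adjusted p from 0.0503 to 0.135). The other axis genes were called in neither background. The cohesin subunit Stag3, the most abundant of them, was at 28.3 to 36.8 CPM and 25.3 to 35.1 CPM in 129 and at 13.5 to 15.2 CPM and 11.9 to 17.6 CPM in B6J.

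Among the 4 recombination and meiotic entry genes, Hsf2bp rose in both backgrounds. This partner of BRCA2 was at 45.5, 52.8 and 56.3 CPM in 129 with DMSO and at 93.6, 86.5 and 93.6 CPM with the inhibitor. In B6J it was at 45, 35.2 and 36.3 CPM and then at 65.2, 64 and 63.4 CPM. The groups did not overlap, and with changes of 0.83 (SE 0.10, adjusted p = 0.000113) and 0.72 (SE 0.10, adjusted p = 0.000285) it was the most precisely measured of the called genes. Spo11, the enzyme that makes meiotic double-strand breaks, was near the limit of detection, with 6, 28 and 7 counts in 129 with DMSO and 2, 0 and 4 with the inhibitor. The fitted change of -2.80 (SE 0.91, adjusted p = 0.0329) was not called when replicate 2 of the 129 controls was left out (-1.78, adjusted p = 0.186), when replicate 1 or 2 of the treated libraries was (adjusted p = 0.0833 and 0.0908) and in the fit with a replicate block (adjusted p = 0.0816). Meioc, which with YTHDC2 sustains meiotic prophase, was scattered within groups, at 13, 7.84 and 3.47 CPM in B6J with the inhibitor, and was called in neither background (-0.91 and -0.76). In the fit without the library that stands apart in each group, its changes were -0.84 (adjusted p = 0.00963) and -0.74 (adjusted p = 0.0184). The spread in that fit was narrowed by the choice of libraries. Tex11, an X-linked crossover factor, had changes of 0.22 and 0.33 that did not pass the test.

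The remaining 8 genes serve male germ cells, and here 3 rose in 129 and 2 rose and 1 fell in B6J. The testis α-tubulin genes lie apart on chromosome 6 and gave the largest changes. Tuba3a was at 11.4, 21.6 and 23.3 CPM in 129 with DMSO and at 54.2, 93.5 and 92.6 CPM with the inhibitor. In B6J it was at 5.25, 3.39 and 3.41 CPM and then at 11.9, 12.3 and 12.1 CPM. No treated library overlapped a control, and the changes were 2.09 (SE 0.28, adjusted p = 0.000192) and 1.59 (SE 0.29, adjusted p = 0.00145). Tuba3b was at 0.137, 0.476 and 0.421 CPM in 129 with DMSO and at 1.05, 2.54 and 2.65 CPM with the inhibitor (2.59, SE 0.51, adjusted p = 0.00244). In B6J it had only 2, 4 and 0 counts with DMSO and 18, 19 and 16 with the inhibitor (2.97, SE 0.77, adjusted p = 0.0122; 0.0588 with limma-voom). Of the 50-base windows of Tuba3a and Tuba3b, 33.56% and 29.55% occur in more than 1 annotated gene, so reads of the pair may have been split or dropped by the counting and their values are not independent.

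Tex101, a germ cell surface glycoprotein, was at 0.302, 0.49 and 0.702 CPM in 129 with DMSO and at 1.5, 1.89 and 2.08 CPM with the inhibitor. It rose there by 1.88 (SE 0.33, adjusted p = 0.00109), with no overlap. The B6J libraries were at 0.654, 0.409 and 0.526 CPM and 0.468, 0.705 and 0.83 CPM, which overlapped (0.34, SE 0.33, adjusted p = 0.477). Taf7l, a germ cell subunit of TFIID, was at 2.35, 2.86 and 2.59 CPM in B6J with DMSO and at 1.49, 1.9 and 1.28 CPM with the inhibitor, a change of -0.74 (SE 0.24, adjusted p = 0.0359) that held under 14 of 22 alternatives and was lost without any 1 of the B6J libraries but replicate 2 with the inhibitor (adjusted p from 0.0506 to 0.14). Tex14, which builds the bridges between germ cells, was at 24.1 to 26.9 CPM and 31 to 51.8 CPM in B6J. Its change there of 0.69 (SE 0.25, adjusted p = 0.0583) missed the threshold. It was 0.89 (adjusted p = 2.75e-05) without the library that stands apart in each group, where that choice narrowed the spread. Slc25a31, Brdt and Dpep3 were called in neither background.

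The design also asks whether the backgrounds respond differently. The difference between the responses, B6J minus 129, was called for 0 of the 32 genes, against 1.48% of all tested genes. At an unadjusted p under 0.05 there was 1 of the 32 with a smaller response in B6J, Tex101, and 0 with a larger one, where 6.37% and 6.41% of all tested genes were. The Tex101 difference was -1.54 (SE 0.46, adjusted p = 0.147). DESeq2 called this gene (adjusted p = 0.0377) and limma-voom called 0. The next largest differences were -1.48 (SE 0.85) for Sycp2, 1.41 (SE 1.25) for Spo11 and 0.94 (SE 0.59) for Fkbp6. Without the library that stands apart in each group, which leaves 2 libraries per group, 3 genes were called with a larger response in B6J: Fkbp6 by 1.51 (adjusted p = 0.00789), Hormad2 by 0.81 (adjusted p = 0.0309) and Tex14 by 0.86 (adjusted p = 0.00347). That setting called 6.1% of all tested genes with a larger response in B6J, so 3 of 32 is near the share over all genes.

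Where germline genes differed between the backgrounds, more were lower than higher in B6J. With DMSO 13 of 32 were lower and 3 higher in B6J than in 129, where 10.5% and 10.4% of all tested genes were. With the inhibitor 11 were lower and 1 higher, against 9.47% and 8.90%. The other 16 with DMSO and 20 with the inhibitor were not called. The median log2 difference was -0.49 with DMSO and -0.51 with the inhibitor, against -0.01 and -0.01 over all tested genes. The count of genes lower with DMSO was 8 when 129 control 2 or 3 or B6J control 2 was left out. In those fits 8.07%, 8.11% and 7.07% of all tested genes were lower. Without the library that stands apart in each group, 19 were lower with DMSO and 17 with the inhibitor. That setting called 19.3% and 17.9% of all tested genes lower. These comparisons use the same libraries as the responses, so their values are given side by side and not as separate evidence. In both media the same 10 genes were called lower: Fkbp6, Mov10l1, D1Pas1, Syce1, Stag3, Hormad2, Hsf2bp, Slc25a31, Tuba3a and Tuba3b. The DMSO call of Hsf2bp held under 16 of 21 alternatives and was lost when control 2 or 3 of either background was left out and when groups were compared alone (adjusted p from 0.0512 to 0.0704).

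Among the axis genes 5 of 8 were called lower in B6J with DMSO and 0 higher, against 10.5% and 10.4% of all tested genes. With the inhibitor 3 were lower, against 9.47%. No axis gene was higher with DMSO at an unadjusted p under 0.05, and DESeq2 and limma-voom called none higher. The cohesin gene Stag3 was at 28.3, 36.4 and 36.8 CPM in 129 and at 15.2, 13.6 and 13.5 CPM in B6J with DMSO (-1.26, SE 0.16, adjusted p = 0.000251). It was also lower in B6J with the inhibitor (-1.05, SE 0.16, adjusted p = 0.000887), and it was called in neither response. Hormad2 differed by -1.83 (SE 0.26, adjusted p = 0.000498) with DMSO and by -1.13 (SE 0.25, adjusted p = 0.00762) with the inhibitor. Syce1 differed by -0.89 and -0.93 (adjusted p = 0.00084 and 0.000659). The calls of Sycp1 and Smc1b with DMSO, at -1.75 and -2.15 (adjusted p = 0.0249 and 0.0395), were lost under several alternatives, among them leaving out replicate 2 of 129 with DMSO (adjusted p = 0.0726 and 0.113).

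Tuba3b and Tuba3a differed most among the germ cell genes, by -3.69 (SE 0.74, adjusted p = 0.00455) and -2.22 (SE 0.29, adjusted p = 0.000274) with DMSO and by -3.31 and -2.73 with the inhibitor (adjusted p = 0.00115 and 6.01e-05). Even with the inhibitor, Tuba3a in B6J (11.9 to 12.3 CPM) lay near the lowest 129 library with DMSO (11.4 CPM). Slc25a31, the germ cell ADP/ATP carrier, differed by -1.22 with DMSO (SE 0.23, adjusted p = 0.00269) and differed by -1.53 (adjusted p = 0.000659) with the inhibitor. Tex101 differed with the inhibitor alone (-1.44, SE 0.32, adjusted p = 0.00785), where the difference of its responses was not called by edgeR, as given above.

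The piRNA group went both ways. Fkbp6 was lower in B6J, by -2.90 (SE 0.45, adjusted p = 0.000921) with DMSO and -1.96 (SE 0.41, adjusted p = 0.0062) with the inhibitor. D1Pas1 differed by -1.25 and -1.49 (adjusted p = 0.000489 and 0.000132), and Mov10l1, the helicase that feeds piRNA precursors to processing, by -0.64 and -0.78 (adjusted p = 0.0417 and 0.0169). The Mov10l1 call with DMSO held under 14 of 21 alternatives, and the adjusted p reached 0.148 without control 3 of 129. Its call with the inhibitor held under 18 of 21, and the highest adjusted p was 0.0596 without treated replicate 3 of 129. Ddx4 was the one gene higher in B6J in both media, by 1.09 (SE 0.20, adjusted p = 0.00229) and 0.96 (SE 0.20, adjusted p = 0.00506). Piwil2 was at 8.47, 11.6 and 15.3 CPM in 129 and at 23.5, 19.9 and 20 CPM in B6J with DMSO (0.84, SE 0.19, adjusted p = 0.00854). Tdrd1 was higher by 0.84 (SE 0.20, adjusted p = 0.0133) with DMSO, which missed the threshold when replicate 1 of the B6J controls was left out (adjusted p = 0.0548).

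**Figure D3:**
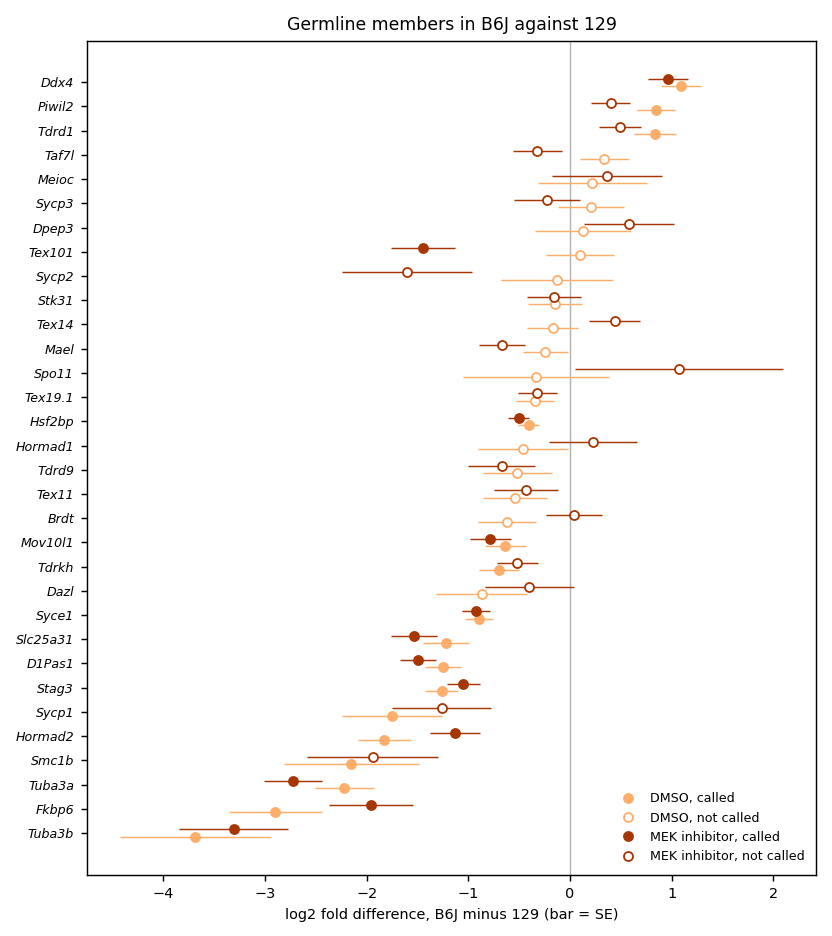
Log2 difference between B6J and 129 (B6J minus 129) for the 32 tested germline genes with DMSO (orange) and with the MEK inhibitor (brown); filled points were called and bars are the standard error of the fit. Most points lie left of 0, from Tuba3b at -3.69 to Ddx4 at 1.09 with DMSO.

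A list of other meiosis, piRNA and germ cell genes outside the module gives context. Of 75 such genes 67 were in the table and 63 were tested. In 129, 9 rose and 13 fell, and in B6J 8 rose and 13 fell, with medians of -0.20 and -0.05. Over all tested genes 17.4% rose and 18.2% fell in 129, and 14.6% and 16.5% in B6J, so these counts were near the share over all genes. Rec114, a partner of the break machinery, was at 0.727, 1.83 and 1.75 CPM in 129 with DMSO and at 4.71, 10.2 and 9.9 CPM with the inhibitor (2.53, SE 0.36, adjusted p = 0.00031), and it rose by 3.11 (SE 0.37, adjusted p = 7.73e-05) in B6J. The germ cell transcription factor Sohlh2 rose by 1.40 in 129 (adjusted p = 0.0076) and the testis ribosomal protein gene Rpl10l by 1.45 (adjusted p = 0.000622). Tdrd5, a Tudor gene of the same piRNA granules as Tdrd1, was at 15.7 to 17.9 CPM in 129 with DMSO and at 1.73 to 2.29 CPM with the inhibitor (-3.11, SE 0.13, adjusted p = 1.24e-07). In B6J it was at 16.7 to 18.2 CPM and then at 3.6 to 4.24 CPM (-2.13, SE 0.12, adjusted p = 8.43e-07). Tdrd6 had 0.224 to 0.312 CPM with DMSO and at most 0.0363 CPM with the inhibitor in 129.

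Transcripts of the known silencers of such genes moved in both directions. Of 19 genes of PRC1.6 and of the histone methylation and deacetylation machinery, 6 rose and 4 fell in 129, and 5 rose and 4 fell in B6J. Of all tested genes 17.4% rose and 18.2% fell in 129, and 14.6% and 16.5% in B6J. E2f6 was at 71.5, 56.6 and 57 CPM in 129 with DMSO and at 50.4, 40.6 and 45 CPM with the inhibitor (-0.44, SE 0.11, adjusted p = 0.0105), and it fell in B6J too (-0.42, SE 0.11, adjusted p = 0.0161). Yaf2, another PRC1 component, changed by -0.89 and -0.83 (adjusted p = 0.000343 and 0.000574), whereas L3mbtl2 rose by 0.44 and 0.45 (adjusted p = 0.00089 and 0.000887). Pcgf6, Max and Mga were called in neither background. Mga was scattered in B6J with the inhibitor, at 412, 310 and 179 CPM, with replicate 3 lowest as for most of the germline genes. Of the 10 genes of DNA methylation and its removal, 4 rose and 2 fell in 129, and 3 rose and 4 fell in B6J. Prdm14 had the largest rise in both backgrounds (1.85 and 1.84). The de novo methyltransferase Dnmt3b had the largest fall in both, from 632, 772 and 764 to 249, 291 and 293 CPM in 129 (-1.38, adjusted p = 2.34e-06) and by -1.35 (adjusted p = 3.44e-06) in B6J. Tet3 fell in both too, Dnmt3l rose in 129 and Dnmt3a fell in B6J. Dnmt1, which copies methylation at replication, was called in neither (0.07 and 0.15), and Uhrf1, its cofactor, rose by 0.55 and 0.61 (adjusted p = 0.000252 and 0.000124).

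Markers of other cells moved with the treatment. The 20 fibroblast markers, which feeder cells would carry, summed to 7816, 3947 and 4074 CPM in 129 with DMSO and to 14020, 8818 and 9360 CPM with the inhibitor. In B6J the sums were 5668, 6784 and 6229 CPM and 7982, 10603 and 13354 CPM. Of the 20, 14 rose and 2 fell in 129, and 11 rose and 0 fell in B6J (0 also at an unadjusted p under 0.05 in edgeR, with DESeq2 and with limma-voom). Of 9 tested primitive endoderm markers, 5 fell in 129 with the inhibitor and 1 fell in B6J, and with DMSO 5 were lower and 1 higher in B6J than in 129. Replicate 1 of the 129 controls held the high endoderm sum given above. The 33 germline genes summed to 263, 397 and 411 CPM and 422, 597 and 591 CPM in 129, and to 287, 277 and 278 CPM and 397, 350 and 320 CPM in B6J. Within each of the 4 groups the library with the highest fibroblast sum had the lowest germline sum. In B6J with DMSO the margin was small (277 against 278 CPM). With these markers as a covariate (their mean log2 CPM), the counts of germline genes were 17 higher and 2 lower in 129 and 16 higher and 2 lower in B6J, where 15.2% and 16.2% of all tested genes were called in 129 and 14.9% and 16.7% in B6J. Tdrd1 and Tdrkh stayed lower in both, the 8 genes that rose in both backgrounds stayed called, and Dazl and Hormad1 in 129 changed by 2.31 and 2.04 (adjusted p = 0.00164 and 0.00702). The covariate also follows the treatment, so the parts of the markers and of the inhibitor in these values cannot be told apart.

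**Figure D4:**
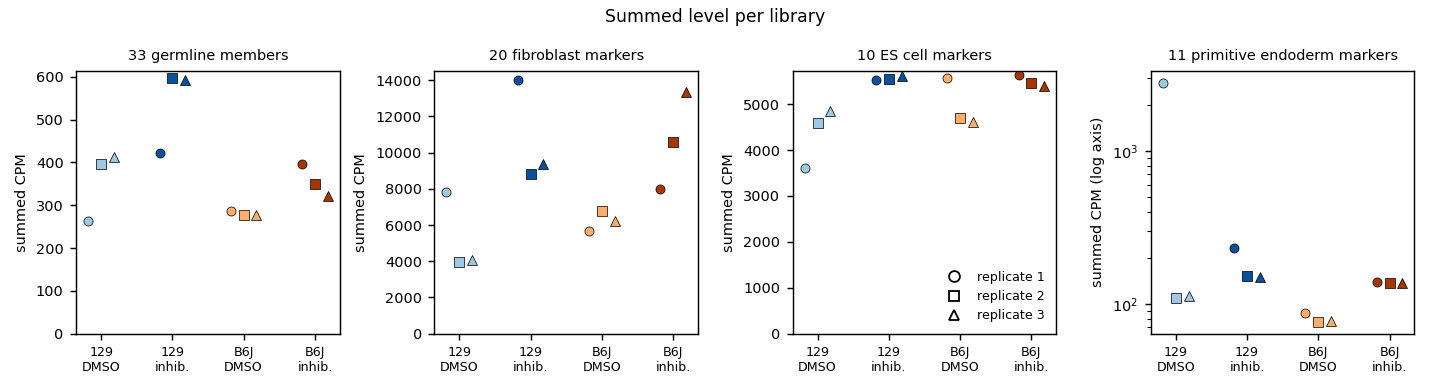
Summed CPM per library of the 33 germline genes, the 20 fibroblast markers, the 10 ES cell markers (linear axes) and the 11 primitive endoderm markers (log axis), with symbols for replicates. In 129 with DMSO, replicate 1 has the lowest germline sum (263 CPM) and the highest endoderm sum (2791 CPM).

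**Figure D5:**
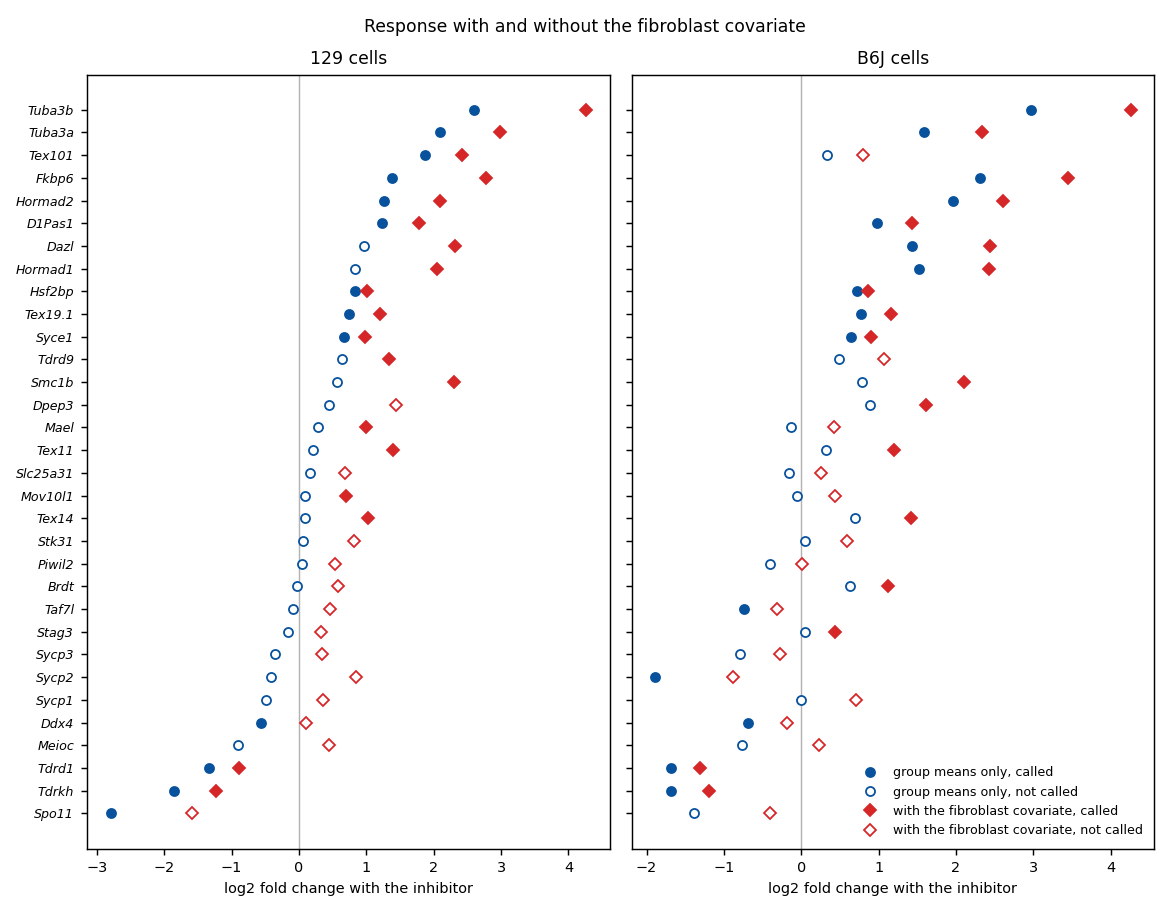
Log2 fold change with the inhibitor for the 32 tested germline genes in 129 (left) and B6J (right), from group means only (blue circles) and with the fibroblast covariate (red diamonds); filled symbols were called. With the covariate the points lie further to the right, Tuba3b for example at 4.26 in both backgrounds, while Tdrd1 and Tdrkh remain left of 0.

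Markers of other states that carry germline transcripts were also counted. The 9 measured markers of 2-cell-like cells summed to 3.8 to 27.9 CPM in 129 with DMSO and 3.49 to 10.3 CPM with the inhibitor, but to 0.554 to 0.742 CPM and 4.62 to 6.29 CPM in B6J. Of these 9, 7 rose in B6J and 0 rose in 129 (0 also at an unadjusted p under 0.05 in edgeR, with DESeq2 and with limma-voom), where 1 fell. With DMSO 8 of the 9 were lower in B6J than in 129. Of 11 tested markers of primordial germ cells and spermatogonia, several of them shared with naive ES cells, 5 rose and 2 fell in 129 and 3 rose and 2 fell in B6J. Nanos3, a defining gene of primordial germ cells, fell in both backgrounds, whereas Kit, Prdm14 and Sohlh2 rose in both. The part of these markers in the results was not tested.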

How the data were processed

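Polyadenylated RNA was sequenced from 12 libraries of mouse ES cells in 4 groups of 3 (stranded TruSeq mRNA kit, NovaSeq 6000, per the labels' protocols). The authors deposited 1 table of whole-number read counts per gene for 26742 genes, without normalization. Per the submitters' processing notes, which give no roles, the builds were mm10 and GRCm38 and the tools HTSeq 0.6.1p1, STAR 2.7.10, DESeq and SAMtools. How the counting treated strand and multi-mapped reads, and its annotation, is not given in the sources used here. Values from 1 to 20 were mostly even (70.09 to 73.37% per library), so halved counts were tried.

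Genes passing filterByExpr (min.count 10, min.total.count 15) were fitted with edgeR 4.0.16 in R 4.3.3: TMM scaling, quasi-likelihood test, 4 group means and all 12 libraries in 1 fit. The contrasts were inhibitor minus DMSO within each background, the difference of these, and B6J minus 129 in each medium. Adjusted p-values (Benjamini-Hochberg) run over all 16627 tested genes, with calls under 0.05. Alternatives, listed with their effect in the closing section, used DESeq2 1.42.0, limma-voom (limma 3.58.1), other filters, scalings and covariates, and left libraries out. The scripts were tested on simulated data. Positions and exon lengths are from GENCODE M21 on GRCm38 (1-based).

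In 129, same-numbered libraries of the 2 groups deviated together (correlations of 0.44, 0.29 and 0.22 over genes). Replicates 2 and 3 did so across numbers too (0.21 and 0.19), so only replicate 1 was set apart. Pairing by number was therefore not shown. In B6J same-numbered libraries did not deviate together (-0.19, 0.09 and -0.17). The labels give no meaning to the numbers.

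Members and gene lists were chosen with earlier results of these data known. All members could be named, those called in a response with every library's value, and of other germline genes up to the 3 largest called rises and falls per contrast. Promoters were printed for at most 8 members called the same way in both backgrounds.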

Additional observations from a re-analysis of the deposited data

Results flagged for a closer look

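Among the silencer, methylation, germline and marker genes around the module, 5 responses differed between the backgrounds by edgeR's test of the difference (B6J minus 129). Tdrd5, a Tudor gene of piRNA granules, fell in both backgrounds and less so in B6J, with a difference of 0.98 (adjusted p = 0.0193). That call was lost in 7 of the 12 fits with 1 library left out (adjusted p from 0.0532 to 0.0704). Setdb1, a histone H3K9 methyltransferase that represses retrotransposons and germline genes, rose in 129 (0.57, adjusted p = 7.33e-05) and fell in B6J (-0.23, adjusted p = 0.0203), with a difference of -0.8 (adjusted p = 0.00264). The fall of Setdb1 in B6J was lost without control 3 or any 1 of the treated B6J libraries (adjusted p from 0.0536 to 0.076) and with the fibroblast covariate (-0.11, adjusted p = 0.246). Its levels were 155, 164 and 169 CPM with DMSO and 219, 248 and 256 CPM with the inhibitor in 129, and 216, 209 and 212 CPM and 185, 180 and 176 CPM in B6J. Dppa3, which limits maintenance methylation through Uhrf1, rose in 129 (0.65, adjusted p = 0.00338) and fell in B6J (-0.45, adjusted p = 0.0252), with a difference of -1.1 (adjusted p = 0.0187). The difference of Dppa3 was lost without replicate 2 of 129 with DMSO, replicate 1 of B6J with DMSO or replicate 2 of B6J with the inhibitor (adjusted p = 0.0583, 0.0518 and 0.0669). The fall of Dppa3 in B6J was lost without replicate 1 of the controls or treated replicate 2 or 3 (adjusted p = 0.0886, 0.082 and 0.0847) and with the covariate (-0.15, adjusted p = 0.416). The 2-cell marker genes Zscan4c and Zscan4d, which are near-identical members of a gene cluster so that the counting could split their reads, had responses that were larger in B6J by 4.74 (adjusted p = 0.0337) and 4.72 (adjusted p = 0.0364). In 129 Zscan4c was at 1.28, 6.46 and 7.38 CPM with DMSO and at 0.525, 2.14 and 1.67 CPM with the inhibitor, and in B6J at 0.151, 0.0963 and 0.189 CPM and 0.898, 1.42 and 1.03 CPM. Leaving out 1 library ended the call of Zscan4c in 10 of 12 fits (all but those without replicate 1 of either 129 group, adjusted p from 0.0538 to 0.0972). It ended that of Zscan4d in 11 of 12 (all but that without replicate 1 of the 129 controls, adjusted p from 0.0646 to 0.103). With limma-voom neither was called (adjusted p = 0.207 and 0.295).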

How the results depend on the processing

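Of the 56 calls of germline genes in the 4 contrasts between groups, 40 kept their direction and their call under every alternative run, among them 10 of 13 in the 129 response, 9 of 15 in the B6J response, 10 of 16 between backgrounds with DMSO and 11 of 12 with the inhibitor. With the fibroblast covariate 17 genes were higher and 2 lower in 129, 16 higher and 2 lower in B6J, and 3 higher in B6J than in 129 with the inhibitor (9, 4, 10, 5 and 1 as reported). Without the library that stands apart in each group 8 were lower in B6J, 3 had a larger response in B6J, and between backgrounds with the inhibitor 2 were higher and 17 lower. The count lower in B6J was 3 with no filter, that in 129 was 2 for groups compared alone and 2 with limma-voom, and DESeq2 called 1 smaller response in B6J. With a stricter filter (min.count 50) 3 fell in 129 and 4 in B6J, and with halved counts 3 fell in 129. Every other count of those settings, and all counts with RLE in place of TMM scaling, were as reported. The cause of these changes was not tested. Leaving out each library in turn gave 8 to 12 genes higher and 2 to 4 lower in 129, 8 to 11 higher and 2 to 6 lower in B6J, 2 to 4 higher and 8 to 14 lower between backgrounds with DMSO, 1 to 1 higher and 10 to 14 lower with the inhibitor, and 0 to 0 for the difference of responses. With the replicate block 9 rose and 3 fell in 129, 12 rose and 6 fell in B6J, and 0 differed in response. The block changed 1 call in 129, that of Spo11, and in B6J it added Tex14, Brdt and Piwil2. The numbers were not shown to pair libraries in either background. No blocked value is possible between backgrounds, whose libraries share no block. Ddx4 in 129 turned from -0.57 to 0.11 and Dmrt1 in 129 from -1.01 to 0.42 with the covariate. Over all genes the difference of responses gave 118 higher and 128 lower calls, against 392 and 388 with DESeq2, 388 and 440 with the covariate, 70 and 93 with limma-voom and 1023 and 1036 without the libraries that stand apart. Depth limits the results most for Spo11, Sycp2, Dpep3, Asz1 and Tuba3b in B6J, which had fewer than 50 counts in every library concerned. The limit given for a count of 0 covers counting error only.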
